A study of Mus musculus with 20 samples.

Results

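GC-AG introns, which begin with GC in place of the usual GT and end with AG, were the second commonest class of annotated introns in the bone marrow of these mice. They made up 1591 of 181355 annotated splice junctions (0.877%), against 172997 that ended GT-AG. Every annotated junction whose terminal bases were written GC-AG was taken as a member, so no read count chose them, and the genome sequence (mm9, NCBI build 37) read GC and AG at the ends of all 1591. RNA of 20 recipient mice was sequenced in 4 groups of 5: U2AF1(WT) with vehicle, U2AF1(WT) with sudemycin D6, U2AF1(S34F) with vehicle and U2AF1(S34F) with sudemycin D6. All recipients were irradiated and carried marrow pooled from several transgenic donors, in which rtTA and doxycycline switched on the transgene for 7 days in all 4 groups, and each was infused through a jugular catheter for 5 of those days. The U2AF1(WT) controls therefore also overexpressed a U2AF1 transgene. The question was whether the use of GC-AG introns against overlapping annotated junctions differed with the mutation or with the drug.

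The 5′ splice site is first read by base pairing with U1 snRNA and later by U6 snRNA. A C at the second base of the intron breaks one of those pairs, and GC 5′ splice sites are known as a weak class that tends to have a good match elsewhere and to take part in alternative splicing. U2AF1 and its partner U2AF2 bind the other end of the intron, at the 3′ splice site, and sudemycin D6 binds SF3B1, a protein of the U2 snRNP that acts at the branch point. The S34F mutation of U2AF1 is known to change the preference for the base just before the terminal AG. Neither protein is the one that reads the 5′ splice site.

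The commonest GC 5′ splice sites are shown first because they carry the class's sequence preference. The capitals mark the first 2 intron bases, after the last 3 bases of the exon. The first site was found in 258 members (16.2%), the second in 211 (13.3%) and the last in 129 (8.11%).
Most frequent: cagGCaagt
Second most frequent: aagGCaagt
Next most frequent: gagGCaagt

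The genotypes differed in sex. *Xist*, the RNA of the inactive X chromosome, lay between 859 and 1585 CPM (counts scaled to the library total) with U2AF1(WT) and at most at 0.146 CPM with U2AF1(S34F). The Y-linked *Eif2s3y* was at 0 CPM in all mice with U2AF1(WT) and between 78.2 and 105 CPM in those with U2AF1(S34F), so genotype and sex cannot be told apart, whereas the drug was compared within one sex. *U2af1* itself had a median of 36.1 CPM in U2AF1(WT) vehicle mice and 51.6 CPM in U2AF1(S34F) vehicle mice (log2 difference 0.48 ± 0.07 SE, FDR=0.000294), a count that does not separate the transgene from the endogenous gene. Annotated junction reads came to between 33486528 and 63130342 per mouse, and log gene CPM of mice within a group correlated at 0.983 to 0.997.

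GC-AG introns had 5′ splice sites closer to the consensus than GT-AG introns. Over the 7 bases compared (the last 3 of the exon and intron positions 3 to 6) they matched at 5.97 bases on average against 5.06 in GT-AG introns, and 508 (31.9%) matched at all 7 against 4.40%. The last exon base was the consensus G in 96.5% of members and 81.3% of GT-AG introns. The base before it was the consensus in 86.8% against 64.2%, and position 5 of the intron in 93.5% against 79.2%. Position 3, where the consensus allows either purine, differed least with A and G pooled, at 94.6% against 94.0%. By single base it did differ, with A in 87.4% of members and 60.1% of GT-AG introns and G in 7.23% and 33.9%. The base before the terminal AG, in contrast, was much the same in both classes (C in 61.5% of members and 64.4% of GT-AG introns, T in 31.3% and 29.6%).

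**Figure D1:**
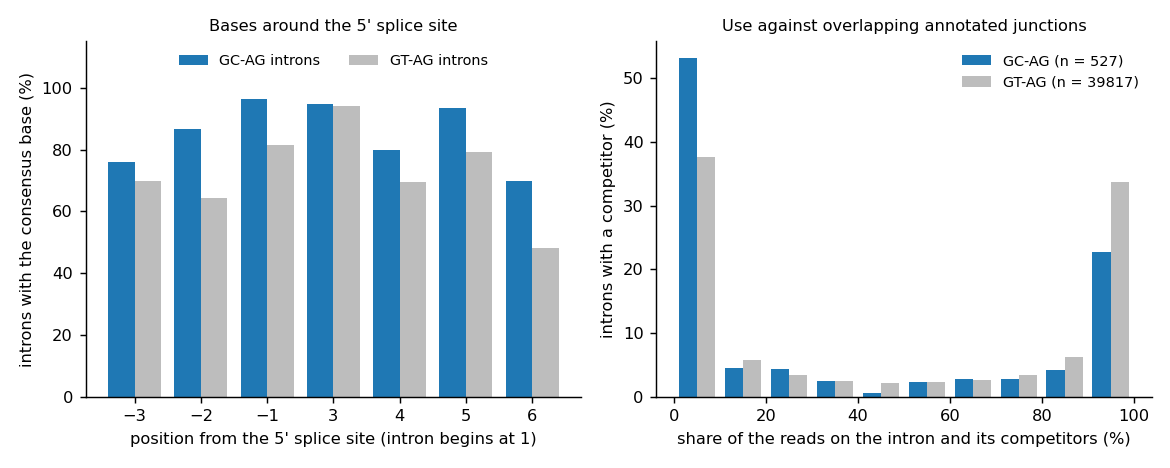
Left, percent of introns with the consensus base at each of 7 positions around the 5′ splice site, for 1591 GC-AG introns (blue) and GT-AG introns (grey). Right, percent of introns by their share of the reads on themselves and their overlapping annotated junctions, in steps of 10%, for the 527 GC-AG and 39817 GT-AG introns with a competitor and enough reads; the blue bars exceed the grey at the low end (53.1% against 37.7%) and fall short at the high end (22.8% against 33.7%).

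The members lay in 1375 genes or gene pairs and used 1515 different 5′ splice sites. Of the 1591, 1230 lay between coding exons, 147 in a 5′ UTR, 39 in a 3′ UTR and 157 in noncoding transcripts, and 18 were not matched in the annotation used. The coding share was 77.3%, against 87.5% of GT-AG introns, and 3.27% of members lay solely in transcripts annotated for nonsense-mediated decay, against 1.46%. Their median length was 1131 bases against 1362. A mean of 10 reads per mouse or more was reached by 951 members.

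GC-AG introns overlapped other annotated junctions more often than GT-AG introns did, and mostly through a shared 3′ splice site. An overlapping annotated junction on the same strand was present for 596 members (37.5%, against 26.1% of GT-AG introns). Of all members, 26.7% shared their 3′ splice site with another annotated junction, against 15.5% of GT-AG introns, whereas only 9.68% shared their 5′ splice site, against 14.1%. The other 995 members had no annotated competitor.

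The share of an intron was defined as its reads divided by its reads plus those of all overlapping annotated junctions, in percent. In the 527 members with a competitor and at least 10 reads per mouse on both together, the median share was 7.58%, against 42.7% in GT-AG introns. The members fell into 280 under 10%, 127 between 10% and 90%, and 120 over 90%. Members with a high share had sites closer to the consensus: 6 or 7 of the 7 bases matched in 85.8% of members with a share over 90%, in 51.8% of members under 10% and in 83.3% of members with no competitor.

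Among junctions that end at one 3′ splice site, the number of matching bases ran with the share of reads. A leading rival 5′ splice site was present for 371 members with enough reads, and it was a GT site for 360 of them. The rival lay upstream in 206 and downstream in 165, at a median distance of 512 bases. Some rival junctions skip an exon, so the 2 sites need not belong to one exon. The GC site matched the consensus at more bases than its GT rival in 211 members, where its median share of their reads was 18.2%. The median was 9.15% in the 87 with equal matches and 1.99% in the 62 with fewer. The GC site had more reads than the GT rival in 88, 20 and 6 of these. In 20 members a GT rival lay exactly 4 bases downstream of the GC site, and of the 130 rivals within 200 bases, 58 (44.6%) lay a multiple of 3 bases away. These are descriptions over introns, some of which share a gene or a site.

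The gene of U2AF1's own partner, *U2af2*, held such a pair in intron 10 of 11, where a GT site lies 12 bases upstream of the GC site (chr7:5026842-5027069, plus strand). The 2 sites are shown over 20 bases, 10 from each side of the splice site, with the first 2 intron bases in capitals.
*U2af2* GC site: gagcctcccgGCacgtcatc
*U2af2* GT site: tgccacgctgGTgagcctcc
The GC intron took 27.0 ± 5.12% of the reads (SD, n=5) in U2AF1(WT) vehicle mice, 31.5 ± 3.39% with sudemycin D6, 28.9 ± 5.24% in U2AF1(S34F) vehicle mice and 28.3 ± 4.56% with both. The 4 groups overlapped, and no comparison was called (FDR between 0.617 and 0.987). At the gene level *U2af2* was lower in U2AF1(S34F) mice (log2 difference −0.35 ± 0.08 SE with vehicle, FDR=0.0045).

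Summed over the class, GC-AG introns took 0.874% to 0.897% of all annotated junction reads in U2AF1(WT) vehicle mice. They took 0.798% to 0.833% in U2AF1(WT) sudemycin mice, 0.773% to 0.821% in U2AF1(S34F) vehicle mice and 0.773% to 0.817% in U2AF1(S34F) sudemycin mice. The first group lay above the other 3 without overlap. Without the 8 members with most reads the ranges were 0.537% to 0.549%, 0.512% to 0.546%, 0.496% to 0.523% and 0.503% to 0.521%, so that the 2 U2AF1(WT) groups overlapped, while the U2AF1(WT) vehicle mice still lay above both U2AF1(S34F) groups. The 596 members with a competitor took 0.132% to 0.141% and 0.133% to 0.142% of reads in the U2AF1(WT) groups, and 0.122% to 0.126% and 0.123% to 0.127% in the U2AF1(S34F) groups, so that the genotypes did not overlap under either treatment. They did not overlap within a treatment without the 8 of the 596 with most reads either (0.101% to 0.104% and 0.0973% to 0.106%, against 0.0913% to 0.0975% and 0.0921% to 0.0965%). As a share of the reads on the 596 introns and their competitors the genotypes did overlap under both treatments. With vehicle the ranges were 13.9% to 15.3% in U2AF1(WT) and 13.4% to 14.1% in U2AF1(S34F) mice. With sudemycin D6 they were 13.7% to 16.1% and 13.5% to 13.9%. No test was made of these sums, which also move with the expression of the genes. In bulk marrow, fewer cells of a type and less RNA per cell cannot be told apart.

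**Figure D2:**
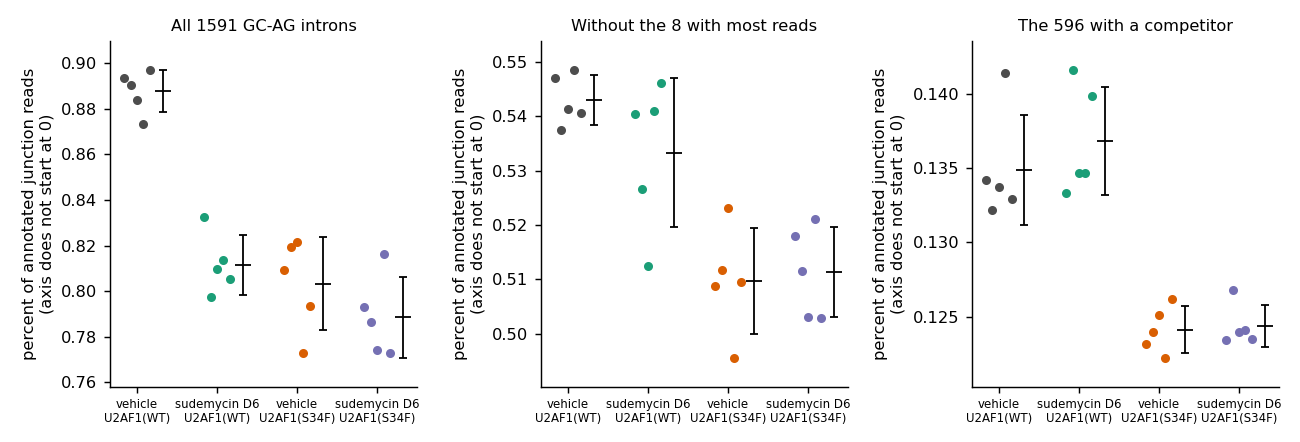
GC-AG introns as a percent of annotated junction reads in each mouse (points, 5 per group) with the mean and SD (black), for all 1591 introns, without the 8 with most reads, and for the 596 with an overlapping annotated junction; the axes do not start at 0. The U2AF1(WT) vehicle mice stand above the others on the left and overlap the U2AF1(WT) sudemycin mice in the middle, and on the right the U2AF1(S34F) groups lie below the U2AF1(WT) groups.

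The 8 members with most reads carried between 32.2% and 39.7% of all reads on the class. They included introns of *Eef1a1* (translation elongation factor), *Rps27a* and *Rpl37a* (ribosomal proteins), *Pkm2* (pyruvate kinase), *Gnb2l1* (a ribosomal scaffold protein) and *Lsp1* (a leukocyte actin-binding protein), and none had an annotated competitor. The GC-AG intron of *Rpl37a* (chr1:72758375-72758715, plus strand) held 34.3% to 38.7% of the gene's annotated junction reads in the 10 mice with U2AF1(WT) and 28.3% to 31.4% in the 10 with U2AF1(S34F). The genotypes did not overlap, and these gene shares were not tested. Those of the other introns with most reads are not given here, and separation over all junctions was not counted, so this is no result about the class. *Rpl37a* is a ribosomal protein gene, and the limit of near-identical copies given below for *Rpl29* holds here too.

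For the test of use, an intron needed a mean of 10 reads per mouse with its competitors and 1 on each side, which 450 of the 1591 members (28.3%) met in at least 1 of the 5 comparisons. Calls were made with the edgeR quasi-likelihood test at FDR<10% over all annotated junctions tested and a difference in mean share over 1 percentage point. Over the 5 comparisons, 31 members were called, 22 of them in a genotype comparison and 8 in a drug comparison, with 2 in both kinds, and 3 called only with mutation and drug combined. The test with the dispersion set to 0 decides these counts: limma on the logit of the share and edgeR with an estimated dispersion called none of the members in either genotype comparison.

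Under vehicle, 16 of 398 members tested were called between the genotypes (4.02%), beside 3.41% of all annotated junctions tested. In U2AF1(S34F) mice 7 were used more and 9 less, and in 9 of the 16 the shares of the groups did not overlap, beside 699 of the 1155 calls over all junctions. Under sudemycin D6, 12 of 389 were called (3.08%, beside 3.76% of all), with 5 used more and 7 less, and 5 without overlap, beside 752 of the 1275 calls over all junctions. The median difference of the members was −0.17 percentage points under vehicle and 0.0071 under sudemycin D6, beside 0.0037 and −0.026 for all junctions tested. The members' share of calls lay near that of all junctions in both comparisons, with no common direction. The 2 comparisons share no mice but carry the same difference in sex. In both, 6 introns were called, all 6 in the same direction (37.5% of the first list and 6 of the 12 in the second). These were the introns of *Macf1*, *Rpl29*, *Lilra6*, *Ifi27l1*, *Vrk2* and *Flna*. How often the calls over all junctions recurred was not counted, so this is no result about the class.

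**Figure D3:**
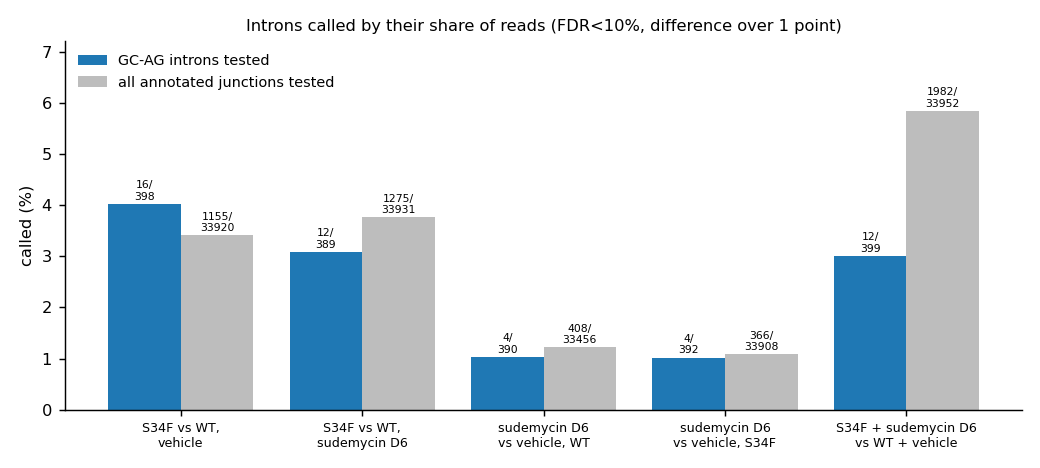
Percent of tested introns called by their share of reads in each of the 5 comparisons, for GC-AG introns (blue) and all annotated junctions (grey), with the number called over the number tested above each bar. The blue bars stay near the grey in 4 comparisons and lie below it in the last (3.01% against 5.84%).

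The 5′ splice sites of the introns that differed between genotypes are shown with their GT rivals where these use the same 3′ splice site, since the pairs define what was counted against what. Each line gives 10 exon and 10 intron bases with the first 2 intron bases in capitals.
*Macf1* GC site: agcaactcagGCaagtatcc
*Rpl29* GC site: gggtcgcgagGCaggcgaca
*Rpl29* GT rival, 63 bases upstream: gcgggttaccGTgagtgttg
*Lilra6* GC site: gggaacaaggGCaagttctt
*Lilra6* GT rival, 114 bases downstream: gtggtgacagGTgaggggac
*Ifi27l1* GC site: ttctccagagGCaagctgtc
*Ifi27l1* GT rival, 842 bases upstream: cccattggagGTaactggcc
*Vrk2* GC site: tttgaaccggGCgagcgtca
*Vrk2* GT rival, 204 bases upstream: ccggcggcagGTcagtcttc

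*Macf1*, a large protein that links actin and microtubules, had the intron with the widest set of calls. Its GC-AG intron (chr4:123147116-123148249, minus strand, coding, intron 1 of 62) lies inside a GT-AG intron that skips both of its splice sites. The share was 86.6, 75.2, 85.5, 82.1 and 81.7% in the U2AF1(WT) vehicle mice and 76.2, 70.8, 67.7, 69.0 and 74.5% in the sudemycin-treated ones. It was 66.6, 71.4, 72.6, 71.8 and 63.2% in U2AF1(S34F) vehicle mice and 63.8, 62.3, 59.4, 60.5 and 67.8% in U2AF1(S34F) sudemycin mice, from 558 to 1138 reads per mouse. The order of the means was thus highest with neither, lowest with both, and the U2AF1(WT) vehicle mice overlapped neither U2AF1(S34F) group. The genotypes differed by −13.1 percentage points under vehicle (FDR=0.000265) and −8.86 under sudemycin D6 (FDR=0.0337). The drug made a difference of −10.6 in U2AF1(WT) mice (FDR=0.0208), and of −6.34 in U2AF1(S34F) mice, which was not called (FDR=0.248). Mutation and drug together gave −19.4 (FDR=7.34e-08), which also held with limma (FDR=0.0563) and an estimated dispersion (FDR=0.0451). The interaction was not called (FDR=0.978). The call under sudemycin D6 was lost without U2AF1(S34F) mouse 9 or U2AF1(WT) mouse 6 (FDR up to 0.136), and the drug call in U2AF1(WT) mice without vehicle-treated mouse 1 (FDR=0.127). The gene *Macf1* itself fell with both together (log2 difference −0.32, FDR=0.00671) and gave −0.20 between the genotypes under vehicle (FDR=0.108).

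*Rpl29*, a ribosomal protein gene, had a GC site in its 5′ UTR (chr9:106331971-106332300, plus strand, intron 1 of 3) that competes for one 3′ splice site. Its share was 10.3, 11.7, 12.2, 14.2 and 13.2% in U2AF1(WT) vehicle mice and 5.14, 5.08, 0.411, 2.24 and 0.306% in U2AF1(S34F) vehicle mice. With sudemycin D6 the values were 8.40, 8.13, 13.3, 8.14 and 9.31% with U2AF1(WT), and 6.2, 0.742, 2.39, 1.40 and 1.33% with U2AF1(S34F). The genotypes did not overlap under either treatment. The difference was −9.67 points under vehicle (FDR=5.88e-05) and −7.03 under sudemycin D6 (FDR=0.000969), and both calls held without any 1 mouse. The gene level also fell (log2 difference −1.67, FDR=0.000214 under vehicle). Ribosomal protein genes have near-identical copies, so counts on *Rpl29* are uncertain.

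*Lilra6*, a leukocyte immunoglobulin-like receptor, moved the other way (chr7:3864391-3864628, minus strand, coding, intron 5 of 8). The GC site took 5.17, 3.04, 1.21, 5.67 and 3.29% of reads in U2AF1(WT) vehicle mice and 11.7, 11, 23.1, 12.3 and 14.0% in U2AF1(S34F) vehicle mice. With sudemycin D6 the values were 4.86, 3.26, 3.79, 4.78 and 15.7%, and 16.0, 18.7, 12.8, 15.7 and 13.2%. The groups were apart under vehicle, while 1 U2AF1(WT) sudemycin mouse reached the level of the U2AF1(S34F) mice. The share rose by 10.8 points under vehicle (FDR=0.000105) and 8.76 under sudemycin D6 (FDR=0.00115), without a called difference of the gene (log2 difference 0.02, FDR=0.913 under vehicle). The receptor belongs to a family of close relatives, which makes its counts uncertain.

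*Ifi27l1*, a small interferon-inducible type of protein, had a GC-AG intron of 151 bases (chr12:104675735-104675885, plus strand, coding, intron 4 of 6). Its share lay between 43.9% and 53.6% in U2AF1(WT) vehicle mice, at 43.0 ± 1.70% (SD, n=5) with sudemycin D6, between 27.4% and 40.7% in U2AF1(S34F) vehicle mice and between 25.2% and 32.6% with both, with no overlap between genotypes. The difference was −14.2 points under vehicle (FDR=0.00999) and −13.5 under sudemycin D6 (FDR=0.016), and mutation and drug together gave −19.4 (FDR=0.000107). The gene level rose under vehicle (log2 difference 0.46, FDR=0.0039), in the direction opposite to the intron's share. *Vrk2*, a serine/threonine kinase gene, had a higher share at its GC site in U2AF1(S34F) mice (chr11:26491728-26493385, minus strand, in a noncoding transcript, intron 1 of 2). The share was 32.3% to 57.4% and 35.0% to 56.9% in the U2AF1(WT) groups against 58.8% to 74.1% and 57.5% to 68.6% in the U2AF1(S34F) groups. The differences of 15.7 and 16.0 points were called (FDR=0.0264 and 0.0422), but the first was lost without U2AF1(WT) mouse 5 or U2AF1(S34F) mouse 11 (FDR up to 0.285) and the second without U2AF1(WT) mouse 6 or 8 or U2AF1(S34F) mouse 2 or 6 (FDR up to 0.142).

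**Figure D4:**
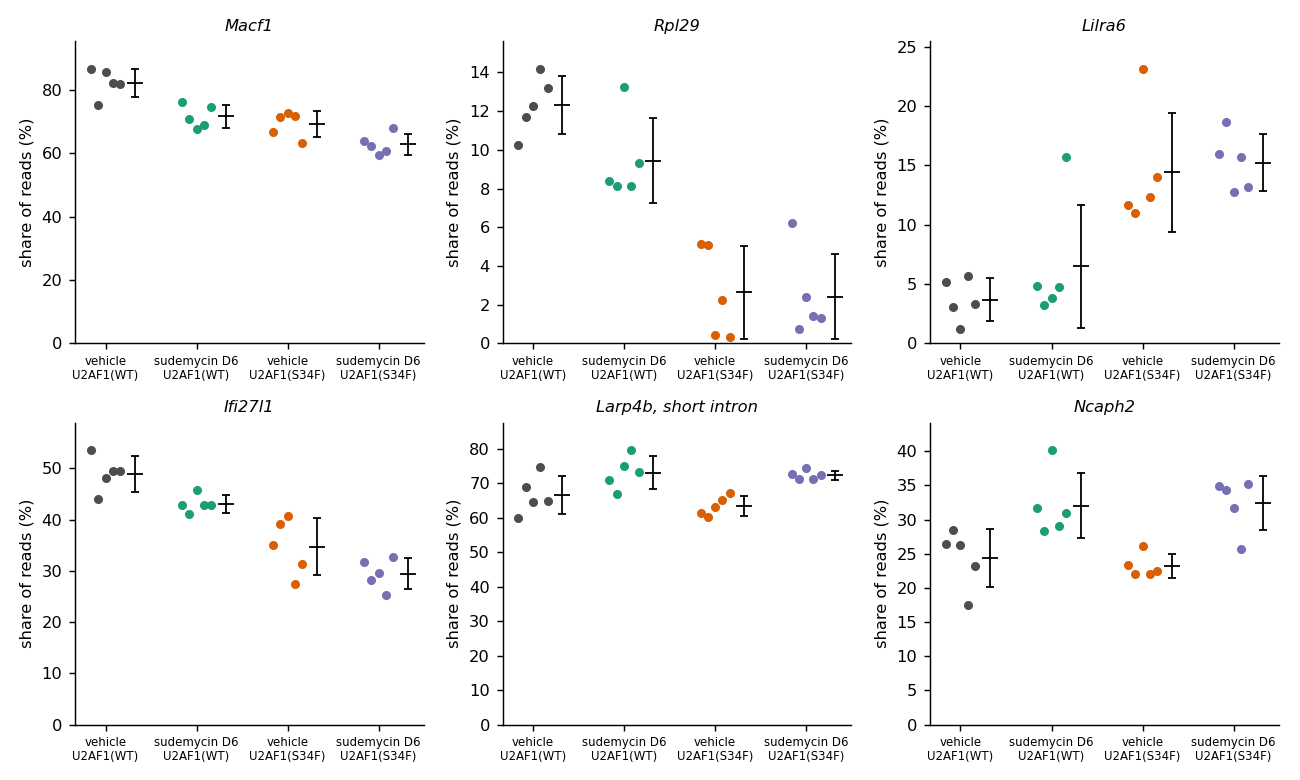
Share of the reads on the intron and its overlapping annotated junctions in each mouse (points, 5 per group) with the mean and SD (black), for GC-AG introns of 6 genes. *Macf1*, *Rpl29* and *Ifi27l1* are lower and *Lilra6* is higher in the U2AF1(S34F) groups, while *Larp4b* and *Ncaph2* are higher with sudemycin D6 than with vehicle in U2AF1(S34F) mice.

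Smaller or less certain genotype calls made up the rest. *Flna*, the actin cross-linker filamin A on the X chromosome, had a GC-AG intron with a share of 2.80% to 4.54% in U2AF1(WT) vehicle mice and 2.25% to 2.88% in U2AF1(S34F) vehicle mice, a difference of −1.11 points (FDR=0.0106) that fell to −0.869, under the minimum, without U2AF1(WT) mouse 4. Under sudemycin D6 it was −1.39 (FDR=3.95e-05), from 11168 to 23284 reads per mouse. The 2 competitors of the *Flna* intron are GT-AG introns that both lie inside it and do not overlap each other. They averaged 9144 and 8546 reads per mouse, and 1 transcript can add reads to both, which lowers the share. *Gm3435*, a predicted gene, changed under vehicle (−14.2, FDR=0.00136), while under sudemycin D6 the difference was −2.41 (FDR=0.975). *Fkbp8*, a mitochondrial immunophilin, was called under sudemycin D6 (−8.41, FDR=0.0493), where the call was lost without U2AF1(S34F) mouse 6, 9 or 10 or U2AF1(WT) mouse 10 (FDR up to 0.172), and gave −3.43 under vehicle (FDR=0.615). *Actb*, cytoplasmic actin, gave −6.75 under sudemycin D6 (FDR=0.0115). Its GC site matched the consensus at only 2 of the 7 bases, and the base before the terminal AG was G. Whether these *Actb* reads come from splicing was not tested. In *Crlf3*, a cytokine receptor-like factor, 1 GC site serves several 3′ splice sites: use of the farthest fell by 4.24 points under vehicle (FDR=0.0143). The nearer *Crlf3* intron (chr11:79862207-79869953), chosen after its values were seen and a competitor of the farther, rose by 7.58 points (FDR=0.0432), a call that was lost without U2AF1(S34F) mouse 5 or 11 or U2AF1(WT) mouse 3 (FDR up to 0.148). *Spice1*, a centriole gene, showed the largest difference of the 48 member calls, 46.8 points under vehicle (FDR=0.0818), from only 4 to 43 reads per mouse, and the call was lost without any 1 of 7 mice (FDR up to 0.307). Several low-share introns had reads in some mice and none in others. For *Arpc4*, a subunit of the Arp2/3 actin nucleator, the share was 0, 0, 0, 3.04 and 0% in U2AF1(WT) sudemycin mice beside 2.61% to 4.08% in U2AF1(S34F) sudemycin mice, from 1093 to 2266 reads in each.

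The competitors of the called members were of several kinds. The called introns of *Macf1*, *Rpl29*, *Vrk2*, *Fkbp8*, *Spice1*, *Arpc4* and *Tctex1d2*, among others, are each intron 1 of a transcript. Whether their shares follow the choice of first exon or that of the 5′ splice site was not tested. Between the genotypes under vehicle the leading competitor shared the 3′ splice site in 259 of the 398 tested members and in 11 of the 16 called, shared the 5′ splice site in 63 and 3, and shared neither in 76 and 2. Under sudemycin D6 the 12 genotype calls came from 9 of 249, 0 of 64 and 3 of 76 members of these kinds, and the 4 drug calls in U2AF1(WT) mice from 1 of 256, 2 of 61 and 1 of 73. Where the competitors end at the same 3′ splice site, the base before AG, which U2AF1(S34F) is known to read differently, is the same for both. Counted by that base, 10 called members under vehicle had C (5 used more, 5 less) and 5 had T (2 more, 3 less). Over all junctions called, 380 of 653 with C were used more and 285 of 403 with T less. Under sudemycin D6, 4 called members had C (1 more, 3 less) and 6 had T (4 more, 2 less), where over all junctions 383 of 713 with C were used more and 300 of 444 with T less. With the competitors limited to the same 3′ splice site, 12 of 287 members (4.18%, beside 2.92% of all) were called under vehicle and 9 of 282 (3.19%, beside 2.85%) under sudemycin D6.

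Few GC-AG introns passed the test with sudemycin D6. In U2AF1(WT) mice 4 of 390 members were called (1.03%, beside 1.22% of all junctions), with 1 used more and 3 less. In U2AF1(S34F) mice 4 of 392 were called (1.02%, beside 1.08% of all), 2 in each direction. No intron was called in both. How often the 408 and 366 drug calls over all junctions recurred was not counted, so this too is no result about the class. At the same 3′ splice site the calls were 2 of 285 (0.702%, beside 1.01%) and 3 of 285 (1.05%, beside 1.03%). In U2AF1(WT) mice the calls were *Macf1* and *Arpc4* (−3.07, FDR=0.0051), both given above, and 2 introns of *Tctex1d2*, a dynein light chain, that leave from one GC site. The shorter *Tctex1d2* intron (chr16:32420014-32422905) had a share of 91.4% to 98.0% with vehicle and 99.6% to 100% with sudemycin D6. The difference was 5.48 points (FDR=0.017), while the longer, which skips an exon, went from 0.965% to 4.15% to at most 0.166% (−2.74, FDR=0.0259). The longer intron, with a mean of only 6.35 reads per mouse, is the sole competitor of the shorter. The 2 calls therefore rest in part on the same few reads. These were the 2 drug calls that limma also made (FDR=0.0143 for both), and they held without any 1 mouse.

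In U2AF1(S34F) mice the drug moved *Larp4b*, which encodes an RNA-binding La-related protein. Its GC site serves 2 introns, a short one to the next exon (chr13:9157476-9157796, plus strand, coding) and a long one that skips it (chr13:9157476-9163920). The lines show the GC site, and then 20 bases up to each 3′ splice site with 3 exon bases, the base before AG in capitals.
*Larp4b* GC site, both introns: ctagaagcagGCaagttcac
*Larp4b* 3′ splice site, short intron: tacaaacatctcatttgCaggaa
*Larp4b* 3′ splice site, long intron: ggtcttttgctttcttcTaggaa
The short intron's share was 61.5, 60.1, 63.0, 65.2 and 67.1% with vehicle and 72.6, 71.1, 74.4, 71.2 and 72.3% with sudemycin D6, 8.92 points more (FDR=0.00502) with no overlap. The long intron's share fell by 5.93 points (FDR=0.00153), from 18.8% to 22.9% down to 13.2% to 15.2%. Both calls held without any 1 mouse, in limma they had an FDR of 0.566 and 0.56, and the drug gave 6.56 and −4.70 points in U2AF1(WT) mice (FDR=0.417 and 0.193). The long intron is the competitor of the short one, so both calls share reads. Against junctions at the same 3′ splice site, the long intron was also called between the genotypes. There it was higher in U2AF1(S34F) mice, by 7.99 points under vehicle (FDR=0.0581) and 6.75 under sudemycin D6 (FDR=0.0252). The drug in U2AF1(S34F) mice went the other way on that measure (−8.33, FDR=0.00346). The gene *Larp4b* gave a log2 difference of 0.02 with the drug in U2AF1(S34F) mice (FDR=0.936). *Ncaph2*, a condensin II subunit, has a GC site 17 bases upstream of a GT rival.
*Ncaph2* GC site: gcacagctggGCgagtatct
*Ncaph2* GT rival: tctggaggagGTgagggcgg
The *Ncaph2* GC site (chr15:89186358-89190786, plus strand) took 23.3, 22.0, 26.2, 22.1 and 22.5% of reads in U2AF1(S34F) vehicle mice and 34.9, 34.3, 31.7, 25.7 and 35.3% with sudemycin D6, 9.18 points more (FDR=0.0136), with 1 treated mouse inside the vehicle range. The difference in U2AF1(WT) mice was 7.67 points (FDR=0.391). The remaining drug call, chosen after its values were seen, was an intron assigned to *9930111J21Rik1* and *Gm12185* (−1.26 points, FDR=0.0589), which was lost without any 1 of 5 mice (FDR up to 0.217).

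With mutation and drug together against neither, 12 of 399 members were called (3.01%, beside 5.84% of all), 5 used more and 7 less, and 5 without overlap, beside 1259 of the 1982 calls over all junctions. At the same 3′ splice site 10 of 292 were called (3.42%, beside 5.04%). Besides *Macf1*, *Rpl29* (−9.90, FDR=1.57e-05), *Lilra6* (11.6, FDR=1.12e-06), *Ifi27l1* and *Vrk2* (13.8, FDR=0.0407, lost without U2AF1(WT) vehicle mouse 5 or U2AF1(S34F) sudemycin mouse 6), these included *Ankrd13d*, an ankyrin-repeat protein (27.6, FDR=0.00106), and *Usp45*, a deubiquitinase (−20.5, FDR=0.0264, lost without U2AF1(WT) vehicle mouse 2 or U2AF1(S34F) sudemycin mouse 2), both chosen after their values were seen. The 3 introns called in this comparison alone, also chosen afterwards, lay in *Znhit1* (12.4, FDR=0.0644), *Tmem55b* (−4.97, FDR=0.0904) and the *Ugt1a* gene cluster (−2.33, FDR=0.0906), and each was lost without any 1 of 6 to 8 mice. *Macf1*, *Rpl29*, *Lilra6* and *Ifi27l1* were the ones also called by limma (FDR between 0.0359 and 0.0742). No member was called in the interaction of genotype and drug with edgeR (0 of 397, beside 0.00293% of all junctions), where 21 had an unadjusted p under 0.05 (5.29%, beside 4.87% of all). DESeq2 called 1 and limma 0.

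Some well covered GC-AG introns did not pass the test in any comparison. *C3*, the central complement component, held between 87.2% and 92.2% over all 20 mice from 2108 to 4275 reads each. *Sqstm1*, the autophagy receptor p62, held 79.0% to 89.1%. *Nfe2*, a transcription factor of megakaryocytes and erythroid cells, lay between 76.7% and 82.0% with U2AF1(WT) and between 69.4% and 79.4% with U2AF1(S34F) (−6.13 under vehicle, FDR=0.112). *Tacc1*, a centrosomal protein, took 19.6% to 22.0% in U2AF1(S34F) vehicle mice and 23.6% to 25.6% in U2AF1(S34F) sudemycin mice, apart by 3.74 points, with FDR=0.435. A missed threshold does not show that these shares were equal.

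Genes of 5′ splice site recognition were counted as context, 49 gene records of 48 genes that cover U1, U6 and tri-snRNP proteins. Under vehicle 21 passed FDR<10%, 18 higher and 3 lower in U2AF1(S34F) mice, beside 39.5% of all genes tested, and under sudemycin D6 19 passed (14 higher, 5 lower, beside 36.8%). *Lsm5*, of the ring on U6 snRNA, rose by 0.99 on the log2 scale under vehicle (FDR=0.000864), and *Txnl4a*, a tri-snRNP protein, by 0.62 (FDR=0.0013). *Luc7l2*, of the U1-associated LUC7 family, fell by 0.35 (FDR=0.0147). Sudemycin D6 raised 2 in U2AF1(WT) mice (beside 3.07% of all genes) and 7 in U2AF1(S34F) mice (beside 10.8%), with the helicases *Snrnp200* (0.42, FDR=0.0219, and 0.27, FDR=0.016) and *Ddx23* (0.34, FDR=0.0696, and 0.19, FDR=0.0492) in both. With both together 34 passed, 28 higher and 6 lower, beside 50.2%. The median log2 difference of the list was between 0.026 and 0.22 in the 5 comparisons, beside −0.027 to 0.0040 for all genes.

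The labelled tissue carried its markers, and some passed FDR<10%, to be read beside the percentages of all genes just given. The summed level of 8 neutrophil genes was 42377 to 48090 CPM in U2AF1(WT) vehicle mice and 53815 to 87783 in U2AF1(S34F) vehicle mice, with 3 of 8 passing, all higher, near the 39.5% of all genes. With the drug, 2 of 4 stem and progenitor genes fell under U2AF1(WT) and 3 of 4 under U2AF1(S34F), where the sum went from 117 to 143 CPM down to 72.7 to 106 CPM. Of 6 B cell genes, 1 was higher in U2AF1(S34F) than in U2AF1(WT) mice under vehicle, and 3 were lower under sudemycin D6. With both together 5 were lower (287 to 471 CPM in U2AF1(WT) vehicle mice, 310 to 366 with both). The drug comparison gave 1 lower within each genotype. Between the genotypes under vehicle 3 of 5 monocyte genes in the table were lower (under sudemycin D6 2 were higher and 1 lower), none of 7 erythroid genes passed, 2 of 5 T and NK cell genes were higher and 1 lower, 1 of 5 megakaryocyte genes was higher and 1 lower, and 1 of 4 stromal genes was higher and 2 lower, the latter list at 52.5 to 181 CPM in sum over all mice. Their part in the intron calls was not tested.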

How the data were processed

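Bulk bone marrow RNA of 20 mice was sequenced from stranded, ribosome-depleted libraries. The authors aligned the reads with TopHat2 2.0.8 to mm9 (NCBI build 37) and deposited raw counts per splice junction (554616 junctions) and per gene (37620 genes, 41145892 to 62138138 counts per mouse), and the tool that counted them is not given in the sources used here. Groups came from the sample labels, which do not say which donor pool each recipient received, so p-values measure the spread between these mice. The members, lists and tests were chosen with earlier results of these data known.

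Each intron's share was tested with edgeR 4.0.16 (glmQLFit, dispersion 0, a term per mouse) on the intron's and its competitors' counts, with Benjamini-Hochberg adjustment over all annotated junctions tested, where both together averaged at least 10 reads in a mouse and each side 1. Introns were called at FDR<10% and a difference over 1 percentage point. This form of the test was taken up after others gave almost no calls, and on simulated data its rate of false calls was above the nominal one. Genes were tested with edgeR on TMM-scaled counts, and log2 differences carry a prior count of 2. Sequences and gene models were read from the mm9 reference. Of the 37620 gene identifiers 37205 had a symbol. Introns named were the 5 largest non-overlapping calls per comparison, the 8 with most reads, the best covered with a share of 10% to 90%, and those of splice site recognition genes. Those named beyond this rule are said to be so. Alternatives were DESeq2 1.42.0, limma 3.58.1 on the logit of the share, an estimated dispersion, other minimums and thresholds, all 20 mice in one model, leaving out each mouse, and a replicate block. At the minimum of 10 reads, 1 read moves a share by 10 points. Some members are not reported here by name. R 4.3.3 and Python 3.11.15 were used.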

Additional observations from a re-analysis of the deposited data

Results flagged for a closer look

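In each of 179 groups of 5 mice, over the named introns, the mouse farthest from the rest was compared with Dixon's critical value of 0.71, and 19 groups had a mouse apart, where chance gives about 1 in 20. The introns of *Mlx*, *Copa*, *Rpl27a*, *Rpn2*, *Gm12940* and *Sfpq*, and *9930111J21Rik1* and *Gm12185* lie outside the rule for naming and were chosen after their values were seen, because they were called. Among introns that were called, 1 U2AF1(WT) sudemycin mouse had a share of 15.7% at *Lilra6* while the other 4 had 3.26% to 4.86%, and 1 U2AF1(S34F) vehicle mouse had 23.1%. *Gm3435* had 56.0% in 1 U2AF1(S34F) vehicle mouse, *Rpl29* had 13.3% and *Mlx* 71.0% in 1 U2AF1(WT) sudemycin mouse each, and *Copa* had 94.5% in 1 U2AF1(S34F) sudemycin mouse. Introns with a low share had reads in some mice and none in others: *Arpc4* was at 3.04% in 1 U2AF1(WT) sudemycin mouse and at 0 in the other 4, and at 0% in 1 U2AF1(S34F) vehicle mouse. *Rpl27a* was at 0% in 1 U2AF1(S34F) sudemycin mouse, *Rpn2* at 5.74% in 1 U2AF1(WT) vehicle mouse, and the *Gm12940* and *Sfpq* intron at 1.03% in 1 U2AF1(WT) sudemycin mouse and 4.97% in 1 U2AF1(S34F) vehicle mouse. The *9930111J21Rik1* and *Gm12185* intron stood at 2.74% in 1 vehicle-treated and 1.34% in 1 U2AF1(WT) sudemycin mouse. In *Tctex1d2* 1 U2AF1(WT) sudemycin mouse had 99.6% for the shorter and 0.166% for the longer intron, where the other 4 were at 100% and 0%. Introns that were not called had *C3* at 87.2% in 1 U2AF1(S34F) sudemycin mouse, and *Tacc1* at 29.1% and *Srsf1* at 1.81% in 1 U2AF1(WT) vehicle mouse each.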

How the results depend on the processing

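The count of called GC-AG introns depended most on how the spread between mice was modelled, and the cause was not tested. In the order genotype under vehicle, genotype under sudemycin D6, drug in U2AF1(WT), drug in U2AF1(S34F) and both together, the counts of 16, 12, 4, 4 and 12 became 0, 0, 0, 0 and 4 with an estimated dispersion and 0, 0, 2, 0 and 4 with limma. With competitors at the same 3′ splice site the counts of 12, 9, 2, 3 and 10 became 0, 0, 0, 0 and 2, and 0, 0, 1, 0 and 2. With DESeq2 the drug in U2AF1(S34F) gave 7 calls, both together 21 and the interaction 1, and at the same 3′ splice site DESeq2 gave 17 for genotype under sudemycin D6, 5 for the drug in U2AF1(S34F) and 20 for both. At FDR<5% both together gave 7, and genotype under sudemycin D6 at the same 3′ splice site 5. A minimum difference of 10 points left 9, 3, 1, 0 and 7 calls, and 7, 3, 0, 0 and 6 at the same 3′ splice site. With all 20 mice in one model the drug in U2AF1(WT) gave 4 at the same 3′ splice site.

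Of the genes of 5′ splice site recognition, the drug in U2AF1(WT) mice passed for 5 with DESeq2, 1 at FDR<5%, 1 without a count minimum and 7 with all mice in one model, and the drug in U2AF1(S34F) mice for 12, 4 and 3 with DESeq2, at FDR<5% and with all mice. Mice with the same number did not vary together (correlations of −0.18 to 0.36), and a replicate block over shared numbers gave 7 calls for genotype under vehicle and 5 at the same 3′ splice site.

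Leaving out each mouse gave 11 to 17, 8 to 15, 3 to 6, 3 to 7 and 8 to 16 calls, and 0 to 1 for the interaction. At the same 3′ splice site it gave 8 to 13, 5 to 11, 2 to 4, 2 to 5 and 6 to 11, and for the genes 20 to 26, 16 to 21, 1 to 4, 4 to 9 and 30 to 37. Of 50 single calls, 41 held with DESeq2, 44 with all mice in one model, 6 with limma and 4 with an estimated dispersion, and none reversed. Counting GC-AG ends of any spelling, chosen after seeing the data, gave 17, 12, 4, 4 and 14.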

Other observations

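Beyond the 1591 introns, 116 annotated junctions read GC and AG in the genome but were written with another spelling of the terminal bases, and these were not members. The AT-AC introns, a class of 165 spliced mostly by the minor spliceosome, took 0.0784% to 0.0857% of annotated junction reads in U2AF1(WT) vehicle mice and 0.0727% to 0.0774% in U2AF1(S34F) vehicle mice, which did not overlap. With sudemycin D6 the ranges of 0.0771% to 0.0836% and 0.0748% to 0.0816% did, and none of these sums was tested. Of 371 members with a leading rival 5′ splice site, 11 had another GC site as the rival, so that 2 GC sites competed for one 3′ splice site.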
